A study of Mus musculus with 40 samples.

Results

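Mdm2, Ppm1d and Rbm38 are 3 genes that p53 switches on and whose products hold p53 down, so each closes a negative feedback loop on the tumour suppressor. They are followed here in cultured mouse embryos exposed to an alkylating drug. They were taken from the 6970 genes that the probes of the study name, as all probes that carry exactly 1 gene symbol among these names. The rule found 4 of 15360 probes. Mdm2 has probes 15 and 6074 on array design 1, Ppm1d has probe 4111 and Rbm38 has probe 5732, both on array design 2. The genes were chosen by their ratios of treated over control, which were already known, so those ratios are given as a description and without a test. For these genes, tests are given only for quantities that the choice did not use, such as the dye part of a ratio or the difference between slide series. Other genes of the pathway are tested for treated over control, in lists chosen with earlier results of these data known.

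The treated embryos were kept at 37 °C for 5 h in the continuous presence of 40 µM 4-hydroperoxycyclophosphamide (4CP), a cyclophosphamide analogue that needs no activation by liver enzymes. The control embryos were cultured at 37 °C without the drug. Total RNA of both was hybridised to 40 two-colour cDNA arrays, each of which compared treated with control embryos, so the arrays form 1 group of comparisons. Each of the 2 array designs had 20 arrays, from 5 replicates. A replicate had 1 slide for each of the 2 dye orientations, and each slide was read out 2 times, named plain and B. The labels used here name no strain, stage or number of pooled embryos and do not say what B means. No tissue is named, so a change in the share of a cell type and a change of RNA per cell cannot be told apart. Only the labels say that replicates are separate, so p-values measure only the spread among these samples, possibly a technical one, and the number of arrays limits the precision.

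Values are log2 ratios of treated over control after each array was centred on its median. Base 2 and this direction are assumptions, since neither is stated in the sources used here. The direction rests on the order of the channels and on the known p53 targets, which include the genes described here, so it is likely and not settled. If the other channel was the numerator, every sign below turns. Before centring, the replicate values had medians over all probes from −0.38 to −0.10 on design 1 and from −0.66 to −0.12 on design 2, and their means over replicates had medians of −0.24 and −0.41. Array medians ran from −1.73 to 1.69. Arrays of one orientation from different replicates correlated as low as −0.54 on design 2 and −0.31 on design 1 over all probes, so their common direction is not settled by the data. The pair at −0.54 were replicates 2 and 4 with treated embryos in channel 2. The B readout of replicate 4 on design 1 with treated embryos in channel 2 stood apart, with 786 missing values and an SD of 1.13.

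In cells p53 is made all the time and destroyed almost as fast, because Mdm2 marks it with ubiquitin for the proteasome. After DNA damage, kinases such as Atm and the checkpoint kinases phosphorylate p53 and Mdm2, the 2 proteins part, and p53 accumulates and activates its targets. Among those targets are Mdm2 itself, the phosphatase Ppm1d (Wip1), which removes the damage-induced phosphates from p53, Atm, the checkpoint kinases and p38, and Rbm38 (RNPC1), an RNA-binding protein that lowers translation of the p53 transcript.

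The promoters are shown because all 3 genes are known p53 targets and their ratios lay on the same side of 0 after centring. Each line is the 250 bases before the annotated start, 5′ to 3′ on the gene's strand, from RefSeq on GRCm38.p6. Capitals mark matches to the p53 half-site consensus, GGGCGG and CCAAT on either strand. The windows are chr10:117710759-117711008 (minus strand) for Mdm2, chr11:85311004-85311253 (plus strand) for Ppm1d and chr2:173021652-173021901 (plus strand) for Rbm38.
Mdm2: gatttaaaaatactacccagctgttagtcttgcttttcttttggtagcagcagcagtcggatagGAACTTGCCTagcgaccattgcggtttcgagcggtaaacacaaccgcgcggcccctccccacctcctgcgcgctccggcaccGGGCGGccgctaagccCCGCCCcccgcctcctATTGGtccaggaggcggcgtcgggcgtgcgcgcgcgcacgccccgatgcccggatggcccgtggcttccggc
Ppm1d: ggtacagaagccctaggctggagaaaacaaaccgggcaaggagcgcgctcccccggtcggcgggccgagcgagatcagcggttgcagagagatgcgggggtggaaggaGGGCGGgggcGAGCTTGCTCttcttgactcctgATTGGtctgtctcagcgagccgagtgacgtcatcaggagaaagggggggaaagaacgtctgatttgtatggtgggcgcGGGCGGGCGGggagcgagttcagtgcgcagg
Rbm38: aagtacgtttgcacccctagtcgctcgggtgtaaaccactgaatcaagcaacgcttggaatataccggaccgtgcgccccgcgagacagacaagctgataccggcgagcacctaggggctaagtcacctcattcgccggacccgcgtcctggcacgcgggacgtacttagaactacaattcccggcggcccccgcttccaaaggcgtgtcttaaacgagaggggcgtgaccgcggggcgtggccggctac

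The p53 half-site, a consensus of 10 letters searched by name, had 1 match in the Mdm2 window, 186 to 177 bases before the start. In the Ppm1d window it had 1 match, 132 to 123 bases before the start. It had 0 matches in the Rbm38 window. Each match reads as the consensus on both strands and was counted once. Of 32851 promoter windows of the same length, 7.13% held such a match. GGGCGG occurred 2 times before Mdm2, 3 times before Ppm1d, where 2 of the matches overlap, and 0 times before Rbm38, and 32.7% of all windows held it. CCAAT occurred 1 time each before Mdm2 and Ppm1d and 0 times before Rbm38, against 33.8% of windows. TATAAA was found in none of the 3, against 12.4%. A match is a description of letters and not a bound site, and no match speaks only of these letters in this window. The known p53-responsive promoter of Mdm2 lies inside the gene, in the first intron, outside the window shown.
All 3 windows were rich in G and C. They held 65.6%, 64% and 61.6% G and C for Mdm2, Ppm1d and Rbm38, against a median of 52.4% over all windows. CpG dinucleotides numbered 29, 22 and 28, against a median of 6.

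Mdm2 had the largest ratios of the 3 genes, although the array designs were centred apart, which limits a comparison with the other two. On probe 15 the 5 replicate values were 0.56, 0.64, 0.92, 1.34 and 1.01, and the mean was 0.89 ± 0.31 (SD, n = 5), which is 1.86-fold. On probe 6074 they were 0.50, 0.48, 1.32, 0.95 and 1.28, with a mean of 0.91 ± 0.41 (SD, n = 5), which is 1.87-fold. Every replicate lay above 0 on both probes, as on 12.9% of all probes of design 1. Of the 7680 probes of design 1, probe 6074 ranked 5 and probe 15 ranked 7 by mean ratio. These ranks used the ratios by which the genes were chosen and are no evidence of their own.

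Single arrays show how the Mdm2 values are made up. Probe 15 was above 0 on 20 of 20 arrays, from 0.13 to 3.20 with a median of 0.77. The value of 3.20 came from the readout with 786 missing values, and the next highest, 2.36, from the B readout of replicate 5 with treated embryos in channel 1. Without the readout that stood apart, the mean of probe 15 was 0.75. Probe 6074 was above 0 on 19 of 19 arrays, from 0.05 to 1.90 with a median of 0.84. It has no value on that readout, so its replicate 4 rests on 3 arrays. Its 2 lowest values, 0.05 and 0.10, were both readouts of 1 slide, replicate 1 with treated embryos in channel 1.

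**Figure D1:**
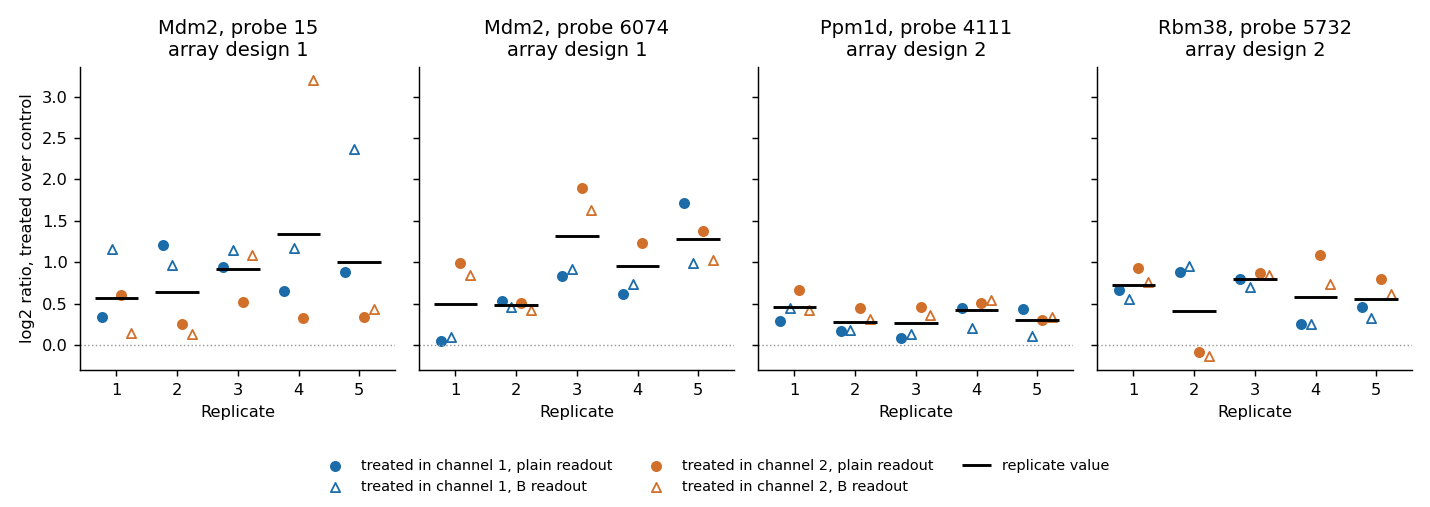
Log2 ratio of treated over control on each array (points) for the 4 probes, by replicate, with colour for the channel of the treated embryos and shape for the readout. Black bars are replicate values. All points of Mdm2 and Ppm1d lie above 0, and the 2 points of Rbm38 below it are both readouts of 1 slide of replicate 2. Arrays are centred on their median, and without centring the mean of Ppm1d is −0.08.

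The 2 Mdm2 probes gave the same mean but did not order the replicates alike. Probe 15 minus probe 6074 was −0.01 ± 0.32 (SD, n = 5) on average and ran from −0.40 in replicate 3 to 0.39 in replicate 4. In replicate 4 probe 15 includes the readout at 3.20, on which probe 6074 has no value. On plain readouts alone probe 15 had 0.49 and probe 6074 0.92 in that replicate. Averaged over both probes, Mdm2 stood at 0.53, 0.56, 1.12, 1.15 and 1.14 in replicates 1 to 5, a mean of 0.90 ± 0.33 (SD, n = 5). With all readouts used, replicates 1 and 2 were thus the lowest on both probes. On plain readouts alone probe 15 was lower in replicate 4, at 0.49, than in replicate 2, at 0.73.

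The split seen with all readouts used follows the slide numbers. On design 1, replicates 1 and 2 are on slides of the 2000 series, and replicates 3, 4 and 5 on slides of the 3000 series. On probe 15 the mean was 0.60 in the 2000 series and 1.09 in the 3000 series, a difference of 0.49. With unadjusted p = 0.0133 it did not pass in limma after Benjamini-Hochberg adjustment over all probes (adjusted p = 0.999). On probe 6074 the means were 0.49 and 1.18, a difference of 0.70, and this too did not pass (unadjusted p = 0.00163, limma adjusted p = 0.999). On both probes all 3000-series replicates lay above all 2000-series replicates, which held for 9.41% of the probes on design 1. For probe 15 the 3000-series values include the readout at 3.20, in replicate 4. On plain readouts alone probe 15 had 0.48, 0.73, 0.73, 0.49 and 0.61 in replicates 1 to 5, and the series overlapped. The limma test called 0 of 7680 probes (0%) for this difference, with 142 probes (1.85%) at an unadjusted p under 0.05. Both probes were above 0 on every array with a value, those of the 2000 series included. That describes the ratios by which the gene was chosen.

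Ppm1d had the smallest ratio and the smallest SD between replicates. Its replicate values were 0.46, 0.28, 0.26, 0.43 and 0.30, and the mean of 0.34 ± 0.09 (SD, n = 5), which is 1.27-fold, became −0.08 when arrays were left uncentred. After centring it was above 0 on 20 of 20 arrays, from 0.08 to 0.67 with a median of 0.35. All 5 replicates were above 0, as on 20.1% of all probes of design 2. By mean ratio the probe ranked 293 of 7599 on design 2, so many probes of that design had ratios of this size. Per replicate its percentile among all probes ran from 88.8 in replicate 2 to 98.6 in replicate 4. Its arrays lay close together. The mean gap between the orientations of a replicate was 0.187, smaller than on all but 3.03% of probes, where the median probe had 0.538. The mean gap between readouts of a slide was 0.135, against a median of 0.234, and Rbm38 had a smaller one, 0.121.

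Rbm38, on the same arrays as Ppm1d, had the larger ratio. Its replicates stood at 0.73, 0.40, 0.80, 0.58 and 0.55, with a mean of 0.61 ± 0.16 (SD, n = 5), which is 1.53-fold and became 0.18 without centring. It exceeded Ppm1d in each of the 5 replicates. By mean ratio it ranked 34 of 7599. The probe was above 0 on 18 of 20 arrays, from −0.13 to 1.09 with a median of 0.72. Both arrays below 0, at −0.08 and −0.13, are readouts of the replicate 2 slide with treated embryos in channel 2, the slide that correlated at −0.54 with replicate 4. On the other slide of replicate 2 the 2 readouts gave 0.88 and 0.95. With the sign of that slide turned, a setting chosen after the data had been seen, Rbm38 had a mean of 0.63 and Ppm1d 0.27, and without replicate 2 they had 0.66 and 0.36.

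**Figure D2:**
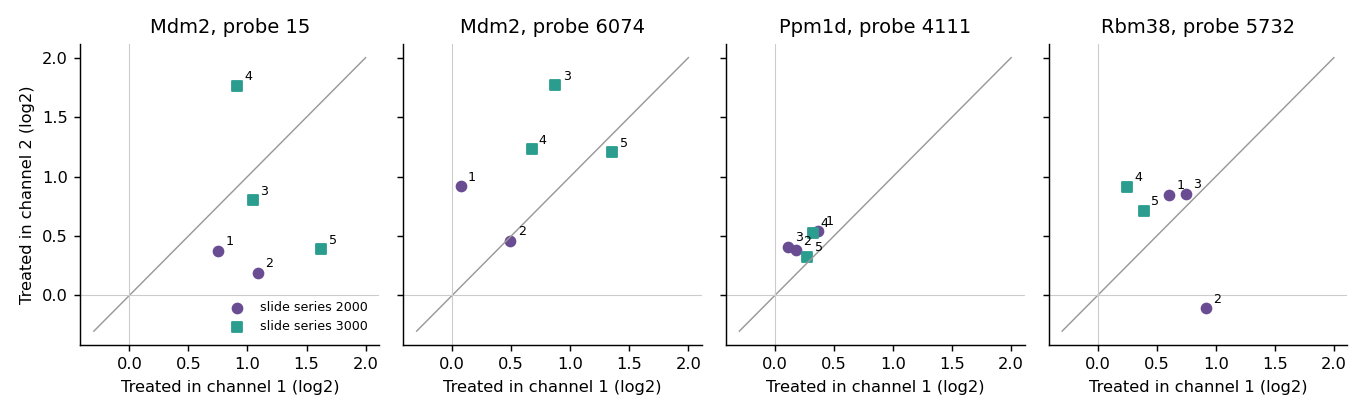
Replicate values with treated embryos in channel 1 (x axis, log2) and in channel 2 (y axis, log2), numbered by replicate, with colour and shape for the slide series and a line of equality. The 5 points of Ppm1d lie close together above the line, and replicate 2 of Rbm38 is the lone point below 0. Without centring the mean of Ppm1d is −0.08.

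Each replicate was hybridised in both dye orientations, and a dye effect of a probe pulls the 2 orientations apart. For Mdm2 the probes leaned opposite ways. Probe 15 read 1.08 ± 0.33 with treated embryos in channel 1 and 0.70 ± 0.63 in channel 2 (SD, n = 5). Its channel 2 value in replicate 4 was 1.76, from readouts of 0.33 and 3.20, while the other replicates had 0.19 to 0.80. Probe 6074 read 0.69 ± 0.47 and 1.12 ± 0.48 (SD, n = 5). The dye part, the mean of both orientations without turning the sign, was 0.19 for probe 15 (limma adjusted p = 0.348) and −0.21 for probe 6074 (limma adjusted p = 0.190), where 16.2% of all probes on design 1 passed, 14% with a positive and 2.14% with a negative dye part. The dye part of probe 15, tested with the readout at 3.20 included, was −0.43 in replicate 4 and 0.12 to 0.62 in the other replicates. Ppm1d read 0.25 ± 0.11 in channel 1 and 0.44 ± 0.10 in channel 2 (SD, n = 5). It was higher in channel 2 in each of the 5 replicates. Its dye part of −0.09 did not pass (limma adjusted p = 0.651). Rbm38 read 0.58 ± 0.27 and 0.64 ± 0.43 (SD, n = 5), with a dye part of −0.03 (limma adjusted p = 0.931). On design 2 the test called 0% of probes, although 1431 (18.8%) had an unadjusted p under 0.05, and 1024 probes passed when replicate 2 was left out.

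For the genes on design 2 the means of the slide series lay close together. Ppm1d had 0.33 in the 2000 series, replicates 1 to 3, and 0.36 in the 3000 series, replicates 4 and 5, a difference of 0.03 (limma adjusted p = 0.956). Rbm38 had 0.64 and 0.57, a difference of −0.08 (limma adjusted p = 0.876). The 3000-series replicates did not all lie above the 2000-series ones for either gene, as they did for 12% of probes on design 2. Here 0% of probes passed, with 719 (9.46%) at an unadjusted p under 0.05, and 48 probes passed without replicate 3.
The readouts of Ppm1d gave 0.38 plain and 0.31 B, a difference of 0.07 (limma adjusted p = 0.999). For Rbm38 they gave 0.67 and 0.56, a difference of 0.11 (limma adjusted p = 0.999). On Mdm2 probe 15 they lay further apart, at 0.61 ± 0.12 plain and 1.18 ± 0.66 B (SD, n = 5), a difference of −0.57 that did not pass (limma adjusted p = 0.878). Its mean gap between readouts of a slide, 0.738, was larger than on 99.2% of the probes. These values include the readout with 786 missing values, in replicate 4 with treated embryos in channel 2. On that slide probe 15 gave 0.33 plain and 3.20 B. Probe 6074 had 0.98 plain and 0.80 B, a difference of 0.19 over 4 replicates (limma adjusted p = 0.878). The readout test called 0% of probes on each design, with 19 (0.247%) and 291 (3.83%) at an unadjusted p under 0.05.

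Against all probes, the genes lay in the upper tail. The means of Mdm2 stood at percentiles 99.91 and 99.93 of design 1, Rbm38 at 99.55 and Ppm1d at 96.14 of design 2. On design 1, 9 probes (0.117%) and on design 2, 10 probes (0.132%) were above 0 on every array with a value, a share that includes the genes described and from which nothing is read about them, since the same ratios chose them. On design 1 these were both probes of Mdm2, 2 probes of Ccng1, 1 each of Aen and Dnajc9, and 3 with no gene name. On design 2 they were Ppm1d, Ccng1, Aen, Ckap2, Gtse1, Cd81, Abhd4, Bloc1s2, Msh6 and 1 with no gene name. These genes were named after their values were seen. Rbm38 is not in this group because of the replicate 2 slide.

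**Figure D3:**
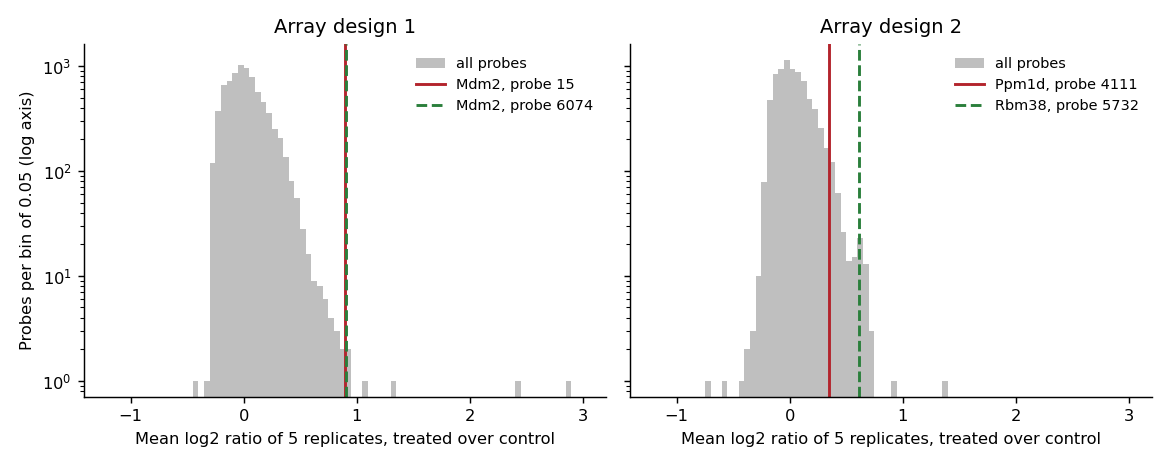
Number of probes (log axis) by mean log2 ratio of 5 replicates, treated over control, in bins of 0.05, for each array design, with lines at the probes of Mdm2, Ppm1d and Rbm38. Both Mdm2 lines stand near 0.9 at the thin end of design 1, and on design 2 Ppm1d stands at 0.34, on the flank of the main body, and Rbm38 at 0.61. Without centring Ppm1d is at −0.08.

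A large part of the ratios followed a trend along the dye behaviour of the probes. A smooth fit on 3 leading components of the dye part took up, in single replicates, 35.7% to 82% of the variance of the treatment ratios on design 1 and 33.3% to 63.4% on design 2. With it removed, Mdm2 had 0.65 ± 0.11 on probe 15 and 0.78 ± 0.41 on probe 6074, Ppm1d 0.38 ± 0.05 and Rbm38 0.56 ± 0.14 (SD, n = 5). The percentile of Ppm1d among all probes went from 96.14 to 99.63 and that of Rbm38 from 99.55 to 99.92, while the Mdm2 probes had 99.88 and 99.95. For probe 15 the spread between replicates shrank from 0.31 to 0.11 with the trend removed.

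The probes nearest to Mdm2 over the 5 replicates were found by the root mean square distance among 4748 probes with 1 gene symbol. The distance uses the ratios by which the genes were chosen. It is small only where mean ratios are alike, and shared regulation was not tested. Rps27l, a p53 target that encodes a ribosomal protein relative known to bind Mdm2, was nearest to both Mdm2 probes, at 0.201 for probe 15 and 0.271 for probe 6074, where the median probe lay at 0.907 and 0.951. It had a mean of 0.79 ± 0.25 (SD, n = 5). The Mdm2 probes lay 0.288 apart, each among the 5 nearest of the other. Rrm2, a ribonucleotide reductase subunit, and Dnajc9, a co-chaperone of histones, were near both, with means of 0.73 ± 0.22 and 0.90 ± 0.16 (SD, n = 5). Cmtm6, a membrane protein, was near probe 15 and Carhsp1, an RNA-binding protein, near probe 6074.
The nearest to Rbm38 among 4854 probes were Abhd4 at 0.115, Cd151 at 0.125, Thyn1 at 0.145, Mcam at 0.157 and Dcaf4 at 0.159, where the median probe lay at 0.606. Abhd4, a lipid hydrolase, had a mean of 0.58 ± 0.17, and Cd151, a tetraspanin of the cell surface, 0.59 ± 0.11 (SD, n = 5). Ppm1d, with its rank of 293, had closer neighbours. They were Fkbp9 at 0.0328, Ldhb at 0.0426, Emd at 0.0529, Prim1 at 0.0546 and Capzb at 0.0546, against a median of 0.338. Fkbp9, a prolyl isomerase, had 0.35 ± 0.07, and Prim1, a primase subunit, 0.36 ± 0.11 (SD, n = 5).

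The rest of the pathway is given by lists of its genes and by limma tests against 0. The lists were chosen with earlier results of these data known, so their tests are no independent evidence. On design 1 the test called 0.651% of all probes, 0.638% higher and 0.013% lower, and on design 2 it called 27.8%, 19.8% higher and 8.07% lower. The median of all probes was 0.00 on design 1 and 0.02 on design 2. The split by direction depended on the setting. Without centring 4596 of 4615 called probes on design 1 and 6634 of 6655 on design 2 were lower. On design 1 with centring, an ordinary one-sample test called 10 higher and 58 lower, and arrays with treated embryos in channel 2 alone gave 318 higher and 790 lower.

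Among other restrainers of p53, cyclin G1 had the largest ratios. On design 1, 2 of 14 probes passed and were higher, both of Ccng1, a p53 target whose product brings a phosphatase to Mdm2. They had 2.90 ± 0.46 and 2.41 ± 0.31 (SD, n = 5), with limma adjusted p = 0.000185 and 0.000115. The list covered 9 of 21 genes and had a median of 0.16. Mdm4, the Mdm2 relative that blocks p53 without degrading it, did not pass on either probe, with 0.17 ± 0.24 and 0.11 ± 0.22 (SD, n = 5), at limma adjusted p = 0.207 and 0.395. Its second probe, 7114, read 0.85 with treated embryos in channel 1 and −0.63 in channel 2, with a dye part of 0.74 that passed (limma adjusted p = 0.00259). On design 2, 3 of 14 probes were higher and none lower, with a median of 0.11. That is near the share of all probes called higher on this design, 19.8%. Ccng1 had 1.39 ± 0.40, Ube4b, a ubiquitin chain elongation factor, 0.20 ± 0.11, and Hdac1, a histone deacetylase, 0.17 ± 0.05 (SD, n = 5). With the dye-profile trend removed Ccng1 alone of these passed. The called Ube4b probe read 0.47 with treated embryos in channel 1 and −0.06 in channel 2. The other Ube4b probe on design 2 had 0.14 ± 0.16 and did not pass.

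Inhibitors of Mdm2, chiefly ribosomal and nucleolar proteins that bind it, had positive medians on both designs. On design 1 none of 14 probes passed, the median was 0.26 and the smallest p was that of Rpl5, at 0.30 ± 0.20 (SD, n = 5, limma adjusted p = 0.0516). On design 2, 11 of 14 probes were higher and 1 lower, with a median of 0.27, among them Rpl11 at 0.36 ± 0.06, Rpl23 at 0.35 ± 0.06, Rps14 at 0.30 ± 0.06 and Npm1 at 0.28 ± 0.08 (SD, n = 5). The lower one was Numb, an adaptor protein, at −0.14 ± 0.07 (limma adjusted p = 0.0492), named after its value was seen. Numb read −0.53 with treated embryos in channel 1 and 0.25 in channel 2, and the Npm1 probe at 0.28 read −0.04 and 0.60. With the trend removed the list had 0 calls on design 2 and medians of −0.02 and −0.01, and uncentred it had 0 higher and 3 lower calls on design 2.

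The list of p53 and its activators holds damage kinases, several of them substrates of Ppm1d, together with cofactors such as the acetyltransferase Crebbp. On design 1 none of the list's 11 probes passed, with a median of 0.07. Atm had 0.04 ± 0.12 (SD, n = 5, limma adjusted p = 0.659), and the smallest p was that of the checkpoint kinase Chek2, at −0.16 ± 0.03 (SD, n = 5, limma adjusted p = 0.0607). On design 2, 2 of the list's 5 probes were higher, and none of the 5 passed with the trend removed. The higher ones were the checkpoint kinase Chek1 at 0.24 ± 0.22 and the p38 kinase Mapk14 at 0.24 ± 0.22 (SD, n = 5), with limma adjusted p = 0.0110 and 0.0103. This Chek1 probe read 0.96 with treated embryos in channel 1 and −0.49 in channel 2. On design 1 Chek1 had 0.08 and 0.26 and did not pass. Trp53, the gene of p53 itself, and Cdkn1a, its cell cycle inhibitor target, were not among the probes used here.

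Among p53 targets of arrest and repair, 1 of 7 probes on design 1 was higher, that of Pcna, the sliding clamp of replication and repair, at 0.67 ± 0.29 (SD, n = 5, limma adjusted p = 0.0387). On design 2, 3 of 8 were higher, Ckap2 at 0.74 ± 0.11, Gtse1 at 0.56 ± 0.20 and Ercc5 at 0.36 ± 0.19 (SD, n = 5). Gtse1 is a microtubule protein known to export p53 from the nucleus, and Ercc5 a repair nuclease. All 3 passed with the trend removed as well. The list medians, 0.02 and 0.01, were near those of all probes.
Targets linked to cell death had 2 of 6 probes higher on design 1, Rps27l at 0.79 ± 0.25 and the nuclease Aen at 0.75 ± 0.12 (SD, n = 5), with limma adjusted p = 0.0196 and 0.00215. On design 2, 3 of 4 were higher, Aen at 0.32 ± 0.08, Pidd1, a death-domain adaptor, at 0.25 ± 0.14, and the death receptor Fas at 0.24 ± 0.16 (SD, n = 5). Of these Aen alone passed with the trend removed. Pidd1 read 0.95 with treated embryos in channel 1 and −0.45 in channel 2, and Fas −0.09 and 0.56. Family relatives of the 3 genes, such as other PP2C phosphatases and RNA-binding proteins, gave 0 calls in 12 probes on design 1 and 1 in 10 on design 2, Rbm5 at 0.26 ± 0.10 (SD, n = 5), which was lost with the trend removed. The smallest p on design 1 was that of Pabpc1, the poly(A)-binding protein, at 0.37 ± 0.18 (SD, n = 5, limma adjusted p = 0.0516).

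**Figure D4:**
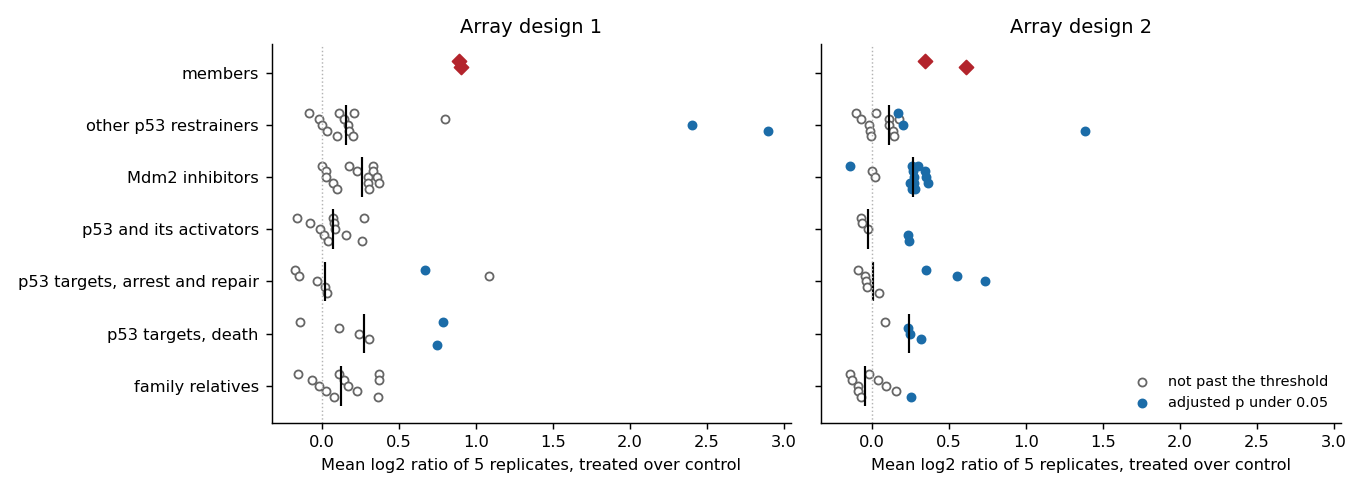
Mean log2 ratio of 5 replicates, treated over control, for each probe of the pathway lists on both designs, with filled points for probes past an adjusted p of 0.05 and a black line at the list median. Mdm2, Ppm1d and Rbm38 are red and carry no test. The points furthest to the right are the probes of Ccng1, and the Mdm2 inhibitors have medians of 0.26 on design 1 and 0.27 on design 2, with single probes from 0.00 to 0.37 and from −0.14 to 0.36. Without centring the Mdm2 inhibitors have no higher call and Ppm1d is at −0.08.

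Markers of other tissues were checked because embryos hold many cell types. Ratios give no level, so the markers show a shift between treated and control only. On design 2, 7 of 9 erythroid probes were higher, the globins Hbb-y (4 probes, 0.58 to 0.63), Hba-x (0.58) and Hbb-b1 (0.50 and 0.29), beside 0.61 for Rbm38 on those arrays, while Alas2 and Slc4a1 did not pass at −0.00 and 0.11. With the trend removed 4 of the 9 passed, and uncentred 0 were higher and 2 lower. The Hbb-b1 probe at 0.29 read 0.96 with treated embryos in channel 1 and −0.38 in channel 2. The erythroid marker on design 1, Gata1, had −0.06 ± 0.07 (SD, n = 5, limma adjusted p = 0.455). Of visceral endoderm and yolk sac markers 0 of 4 probes passed on design 1, with the smallest p for Apob at −0.17 ± 0.14 (SD, n = 5, limma adjusted p = 0.110). Of placenta and decidua markers 0 of 5 passed on design 1, with the smallest p for Prl8a2 at −0.26 ± 0.12 (SD, n = 5, limma adjusted p = 0.0516), and 1 of 2 was lower on design 2, a Dcn probe at −0.18 ± 0.07. This Dcn probe read −0.395 with treated embryos in channel 1 and 0.035 in channel 2. The part of these shifts in the ratios of Mdm2, Ppm1d and Rbm38 was not tested.

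Across the ways of processing, the ratios of the 3 genes moved as follows. Probe 15 of Mdm2 ran from 0.78 to 0.98 when each replicate was left out in turn, probe 6074 from 0.80 to 1.01, Ppm1d from 0.32 to 0.37 and Rbm38 from 0.57 to 0.66. Uncentred, the Mdm2 probes had 0.65 and 0.59, so Mdm2 stayed above 0 as Rbm38 did, at 0.18, while Ppm1d turned to −0.08. Centring shifts every probe of an array alike, so Ppm1d and Rbm38 moved by the same amount. The smaller of the 2 ratios crossed 0, which is no sign that Ppm1d was less steady. With arrays scaled to one spread, the values were 0.85 and 1.06 for Mdm2, 0.36 for Ppm1d and 0.67 for Rbm38.

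**Figure D5:**
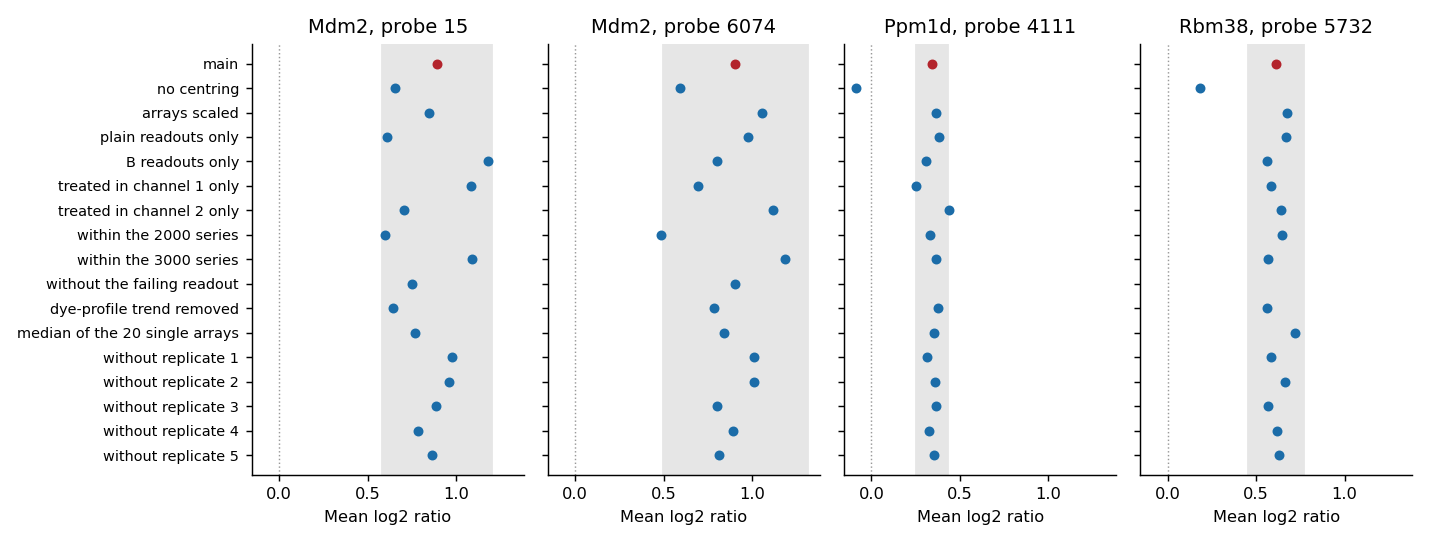
Mean log2 ratio of the 4 probes (x axis) under each way of processing (rows), with the main value in red and a grey band of 1 SD of the replicates around it. Ppm1d leaves its band without centring, at −0.08, and with treated embryos in channel 1 or channel 2 only, at 0.25 and 0.44. Rbm38 leaves its band without centring, at 0.18, and Mdm2 probe 6074 within the 2000 series, at 0.49. Both Mdm2 probes and Rbm38 stay above 0 in every row.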

How the data were processed

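Each of the 40 arrays gave 1 table of log2 ratios, as deposited by the authors, with base, numerator, scanner, background correction and normalization not given in the sources used here. Per the labels, the titles give replicate, array design, slide number and readout, and the source names give the channel of the treated embryos. The labels also describe heat shock and a shorter exposure, not analysed here.

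Ratios were read as channel 1 over channel 2. Each array was centred on its median, control-over-treated ratios were turned, and readouts and then orientations were averaged to 1 value per replicate. Spots of one accession were averaged, which left 7680 and 7599 probes. Probes with at least 3 replicates were tested two-sided by limma 3.58.1 under R 4.3.3, using lmFit and eBayes, within each design, and p-values were adjusted by Benjamini-Hochberg with 0.05 as the threshold. Tested alike were the dye part, the slide series difference and the readout difference. The dye-profile trend was fitted with mgcv 1.9.3 on 3 components. The fits were run on simulated data with independent normal noise for each probe and planted shifts. That noise lacked the dye-profile trend of the real ratios, so the run does not show how the trend affects calls.

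Probes were named through the platform's annotation, and 4749 and 4935 had 1 gene symbol. Promoters came from RefSeq, and all 3 genes matched. Named are all probes of the 3 genes, the 5 nearest probes of each, up to 4 called genes of each list and design with the smallest p or else the 1 with the smallest p, and Trp53, Mdm4, Ccng1, Cdkn1a, Atm and Mapk14. Genes and lists were chosen with earlier results of these data known.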

Additional observations from a re-analysis of the deposited data

Results flagged for a closer look

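Replicate 2 of Rbm38 with treated embryos in channel 2 had −0.109, while the other 4 replicates in that orientation had 0.712 to 0.913. The gap took up 0.803 of the range, above the critical value of 0.71 for 5 samples, which chance exceeds in about 1 in 20 groups. The check was run on each of the 4 probes, with orientations combined and in each orientation alone. Only this group was flagged, and the share of 1 in 20 holds for each group by itself. Over all probes the plain readouts of this slide and of replicate 4 in that orientation shared the lowest correlation, −0.54. The B readout of the replicate 2 slide had −0.37 at its lowest, and the plain readout of replicate 1 had −0.51.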

How the results depend on the processing

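The 4 probes kept their direction under every setting run, except that Ppm1d had −0.085 without centring. Outside 1 SD of the main value were Ppm1d in channel 1 alone (0.25) and channel 2 alone (0.44), Rbm38 without centring (0.18) and Mdm2 probe 6074 within the 2000 series (0.49). The cause was not tested.

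Counts of called probes depended strongly on the setting. On design 1, against 50, the count was 4615 without centring, 345 with arrays scaled, 501 with plain and 3 with B readouts, 2324 in channel 1 and 1108 in channel 2 alone, 569 with the replicate block, 12 with slide series as a term, 3 within the 3000 series, and 1224 without the readout that stood apart. Leaving out each replicate gave 7 to 82, with 8 without replicate 1, 12 without 2, 7 without 3, 82 without 4 and 9 without 5. On design 2, against 2114, it was 6655 without centring, 1331 with arrays scaled, 1076 with plain readouts, 1190 in channel 1 and 117 in channel 2 alone, 811 within the 3000 series, 869 with an ordinary one-sample test, 382 with the dye-profile trend removed, and 755 with the replicate 2 slide turned, which was chosen after seeing the data. Leaving out replicates gave 1013 to 2637, with 1013 without replicate 1. Dye-effect calls on design 1 were 19 without centring and 803 to 1115 leaving out replicates, against 1243, and on design 2 0 to 1024, against 0. Slide series calls were 0 to 1 on design 1 leaving out replicates, and on design 2 13 without centring and 0 to 48 leaving out replicates (48 without replicate 3, 15 without 4 and 1 without 5), against 0. Of the listed probes, 35 were called without centring on design 1, against 5, and 9 with the trend removed on design 2, against 32.

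Higher and lower calls were 343 and 2 on design 1 and 1151 and 180 on design 2 with arrays scaled. Single arrays with the replicate as a block had a correlation within replicates of −0.09 and −0.16, and gave 569 and 2471 calls.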
